A study of Mus musculus with 36 samples.

Results

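The genes described here encode the proteins of the cytosolic ribosome. They were taken by name and biotype from the deposited expression table: every protein-coding gene whose symbol begins with Rps or Rpl and a number, or with Rplp, together with Rpsa, and without the Rps6 kinases, whose names begin with Rps6k. This gave 94 of 56748 genes, or 94 of the 21970 protein-coding ones. By role, 31 encode small subunit proteins, 43 large subunit proteins and 3 the acidic stalk, which makes 77 core genes. Another 9 are paralogs or retrocopies of core genes, 7 carry pseudogene names although they are annotated as protein-coding, and Rps19bp1 codes for a protein that binds RPS19 and is not part of the ribosome.

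RNA-seq was performed on visceral white adipose tissue (visWAT, the epididymal fat pad) and liver of the same 18 male mice on a C57BL/6J background, which gave 36 libraries. MlklAdi-KO mice carried loxP-flanked Mlkl alleles and an Adipo-Cre transgene, which acts in mature adipocytes only, and the controls, called WT, were littermates with the floxed alleles and no Cre. Mlkl encodes a pseudokinase of the necroptosis pathway, and liver and the non-adipocyte cells of the fat pad were not targeted. Normal chow diet (NCD) was given to 4 WT and 4 MlklAdi-KO mice and high-fat diet (HFD) to 5 WT and 5 MlklAdi-KO mice, in all groups for 16 weeks. Per the study's methods, the mice were 16 weeks old when the diets began.

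Ribosomal proteins assemble with ribosomal RNA in the nucleolus into a small subunit, which decodes the messenger, and a large subunit, which joins the amino acids. Cells make them in matched amounts. Many of their messengers start with a C followed by a run of pyrimidines, the 5′ terminal oligopyrimidine (TOP) motif, through which mTORC1 and the protein LARP1 set how much of each messenger is translated and kept. The family is therefore often read as a gauge of the capacity for protein synthesis, and Rplp0, the stalk protein P0, is widely used as a reference gene for RT-qPCR in fat.

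The start sites of a few members are printed because they show how far the TOP motif is shared in the family. Each window holds 10 bases before the RefSeq start of transcription and 20 bases from it, on the transcribed strand, in build GRCm38.p6. Capitals mark a C followed by at least 4 C or T that begins within 5 bases of the start, and windows in lower case throughout hold none.
Rps6, chr4:86857348-86857377, minus strand: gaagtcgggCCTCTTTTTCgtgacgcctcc
Rps10, chr17:27635225-27635254, minus strand: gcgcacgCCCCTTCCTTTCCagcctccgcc
Rps27, chr3:90213629-90213658, minus strand: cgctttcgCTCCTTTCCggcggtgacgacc
Rps27rt, chr9:114982720-114982749, minus strand: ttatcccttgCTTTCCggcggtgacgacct
Rpl22l1, chr3:28805498-28805527, plus strand: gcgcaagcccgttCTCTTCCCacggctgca
Rplp0, chr5:115559457-115559486, plus strand: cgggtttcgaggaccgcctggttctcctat
Rpl41, chr10:128549149-128549178, minus strand: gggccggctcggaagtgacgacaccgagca
RefSeq windows were matched for 57 of the 77 core genes, and 27 of these (47.4%) held such a tract. It was found in 4 of the 9 paralogs (44.4%) and in 5718 of all 27025 genes with a window (21.2%). Among mitochondrial ribosomal proteins, which serve a separate ribosome, 17 of 69 (24.6%) held it. The tract was searched on the transcribed strand only, and a window without it says only that these letters are not near the RefSeq start.

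In fat, 2 libraries of 1 group stood apart. The library labelled WT NCD mouse 182 held 2.29 FPKM of Mlkl (fragments per kilobase of gene, scaled to a size set for each library). That lay within the 1.96 to 2.72 FPKM of the MlklAdi-KO fat libraries and below the 3.91 to 6.28 FPKM of the other WT ones. In the WT NCD library of mouse 183, 17.0% of reads lay on 5 seminal vesicle genes, against at most 0.0242% in any other library. The main results of the diet comparison in WT fat are therefore given with and without these mice. Where no second value is given, all mice were used. Libraries held 20875463 to 30322171 reads on genes, of which the 94 members took 1.22 to 3.14% in visWAT and 0.938 to 1.51% in liver. The size behind the deposited FPKM was not the number of reads on genes. Divided by that number, it had means of 0.76 to 0.78 in the liver groups and 1.34 to 1.38 in the fat groups other than WT NCD. In WT NCD visWAT it was 1.08 in mouse 182 and 1.01 in mouse 183, against 1.37 and 1.30 in mice 165 and 180. A smaller size gives a higher FPKM for the same reads.

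Levels differed widely between members. On the FPKM scale, averaged over the 36 libraries, Rplp1, the stalk protein P1, was highest at 921 FPKM, followed by Rpl36 at 431 FPKM, Rps3a1 at 380 FPKM, Rplp0 at 315 FPKM and Rpl41 at 294 FPKM, with a median of 99.1 FPKM over the core. This order depends on the length each gene was given. In reads per kilobase of the canonical mRNA, scaled to the size of the library, Rplp1 stayed the highest at 921 and Rpl41 came next at 684, but Rpl36 was ranked 26 at 248.

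Only 3 core genes had a mean below 10 FPKM: Rpl13a at 4.87, Rps10 at 1.20 and Rpl24 at 0.713. These were the only core genes with over 50% of their mRNA shared with exons of another annotated gene on the same strand, at 59.3% for Rpl13a, 53.6% for Rps10 and 71.5% for Rpl24. The other 74 core genes had means of 15.7 to 921 FPKM. How reads on shared exons were counted was not given in the sources used here, so the levels of these 3 genes are uncertain, and the part of the overlap in them was not tested.

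Among the members outside the core, the paralogs Rps27l and Rps27rt were abundant, at 140 and 134 FPKM, Rpl7l1 and Rpl22l1 had 18.4 and 11.2 FPKM, and the remaining 5 paralogs were below 1 FPKM. Rpl3l, a paralog of Rpl3 known from striated muscle, and Rpl39l, a paralog known from testis, averaged 0.0766 and 0.0555 FPKM. Rpl10l, Rps18-ps6, Rpl36-ps4 and Rplp2-ps1 were listed at 0 in every library. Of the genes with pseudogene names, Rpl9-ps6 was the highest at 31.2 FPKM. A further 321 genes annotated as pseudogenes of ribosomal proteins, outside the rule, held FPKM equal to 11.9 to 14.4% of the members' sum. How reads were shared among near-identical copies was not given in the sources used here.

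The summed FPKM of the 94 members changed in opposite directions in the 2 tissues between diets. In visWAT of MlklAdi-KO mice the sum was 9197, 9670, 9148 and 9888 FPKM in the 4 NCD libraries and 14384, 12265, 12881, 12777 and 13310 FPKM in the 5 HFD libraries. These groups did not overlap. In visWAT of WT mice it was 9162, 9054, 7062 and 12893 FPKM on NCD and 11066, 14406, 12776, 12322 and 10954 FPKM on HFD. Here the NCD library of mouse 183 lay inside the HFD range and that of mouse 182 was the lowest of all, while the other NCD libraries lay below every HFD one. As a share of all reads on genes, which the seminal vesicle reads also enter, the members took 1.22 to 2.08% in WT NCD fat and 2.38 to 3.14% in WT HFD fat, without overlap.

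In liver, the sum fell from 10592, 10745, 10874 and 10681 FPKM in WT NCD mice to 8989, 8003, 8296, 8453 and 8015 FPKM in WT HFD mice. It was 10638, 10522, 11857 and 12502 FPKM in MlklAdi-KO NCD mice and 9353, 8050, 7663, 9435 and 9341 FPKM in MlklAdi-KO HFD mice. Every HFD liver lay below every NCD liver in both genotypes. No test was made on the sum, and in bulk tissue fewer cells of a type and less RNA per cell cannot be told apart.

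**Figure D1:**
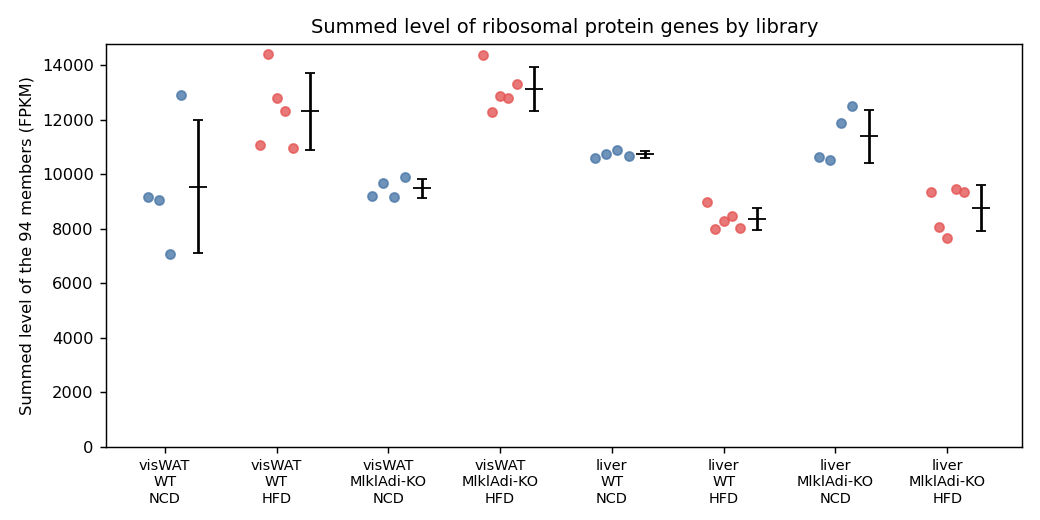
Summed FPKM of the 94 members in each library (points) of the 8 groups, with the group mean and SD (n = 4 on NCD, n = 5 on HFD). The HFD libraries lie above the NCD libraries in visWAT of MlklAdi-KO mice (12265 to 14384 against 9148 to 9888 FPKM) and below them in liver of both genotypes; in WT visWAT the NCD library of mouse 183 reaches 12893 FPKM.

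The comparison of diets within MlklAdi-KO visWAT asked how the family differed between chow-fed and HFD-fed fat. Of 86 members tested, 78 rose on HFD and 0 fell (limma on log2(FPKM + 1), adjusted p under 0.05), and 72 of the 78 had groups that did not overlap. Overlap was checked for members only, so no share over all genes stands beside that 72. Over all genes tested, 23.3% rose and 20.3% fell. The members' median difference was 0.48 on the log2 scale, a 1.40-fold higher level, beside a median of 0.01 over all 14026 genes tested. By role, 29 of 31 small subunit genes, 41 of 43 large subunit genes, 2 of 3 stalk genes, 3 of 4 tested paralogs and 3 of 4 tested genes with pseudogene names rose.

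Rpl32, a large subunit protein, had 157, 166, 168 and 177 FPKM on NCD and 304, 262, 280, 261 and 287 FPKM on HFD in these MlklAdi-KO fat libraries. Its groups lay far apart, and it rose by 0.74 ± 0.07 on the log2 scale (SE, limma adjusted p = 0.000278). Rps26, a small subunit protein at the mRNA exit channel, had 95.4, 98.2, 91.7 and 106 FPKM on NCD and 171, 158, 163, 144 and 158 FPKM on HFD. It rose by 0.69 ± 0.07 (limma adjusted p = 0.000328). The largest difference among non-overlapping members was that of Rpl22l1, a paralog of Rpl22, with 9.51, 10.1, 9.65 and 10.6 FPKM on NCD and 19.8, 17.5, 17.7, 16.3 and 15.8 FPKM on HFD. It rose by 0.75 ± 0.07 (limma adjusted p = 0.000219), with every HFD library above every NCD library.

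Rps6, the small subunit protein phosphorylated by the S6 kinases, rose by 0.40 ± 0.07 in the same comparison (limma adjusted p = 0.00197), from 168, 169, 160 and 172 FPKM to 244, 211, 219, 217 and 214 FPKM. Rplp0 had 273, 303, 280 and 275 FPKM on NCD and 396, 354, 387, 361 and 399 FPKM on HFD. The Rplp0 groups did not overlap, and the gene rose 1.34-fold (log2 difference 0.42 ± 0.07, limma adjusted p = 0.00223). Rpl5 and Rpl11, which bind 5S rRNA and the p53 regulator MDM2, rose by 0.45 and 0.42, and Rps19, the gene most often mutated in Diamond-Blackfan anaemia, by 0.46. Rps3, at the mRNA entry channel, rose by 0.60 and Rpl10, which joins the large subunit late, by 0.66. Smaller rises were those of Rpsa, the laminin receptor and small subunit protein, at 0.32, Rpl3, near the catalytic centre, at 0.35 and Rpl4, at the exit tunnel, at 0.31.

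The 8 tested members that did not pass were Rpl24, Rps10, Rps27, Rps27rt, Rpl21, Rplp2, Rpl9-ps6 and Rps19bp1. Of these, Rplp2, the partner of Rplp1 in the stalk, differed by 0.22 ± 0.13 (limma adjusted p = 0.221) and Rps19bp1 by 0.11 ± 0.10 (limma adjusted p = 0.392). The remaining 8 of the 94 members were below the expression filter in this comparison.

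In WT visWAT, 22 of 86 members rose on HFD and 1 fell, at a background of 21.9% of all genes rising and 15.8% falling, so the share of members called was close to that of all genes. The members' median difference was 0.42 (1.34-fold) against -0.01 over all genes, and 83 of the 86 lay above 0, as did 49.2% of all genes. Without mice 182 and 183, 62 members rose and 0 fell, with a median of 0.43, at a background of 27.8% of all genes rising and 24.2% falling. Leaving out mouse 183 alone gave 69 calls. Leaving out WT NCD mouse 180 or 182, or WT HFD mouse 155, 161 or 162, gave 13 to 15. The shares of all genes called in these single-mouse fits are not reported here. The counts therefore show only how much the member calls depended on single mice. On the TPM (transcripts-per-million) scale, 73 rose, but there the median of all genes was itself 0.34 higher on HFD, and 3911 genes rose against 226 that fell, where the FPKM fit had 3108 and 2239. With edgeR 15 members rose, and 2693 genes rose against 3169 that fell.

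Rps29, a small zinc-binding protein of the small subunit, had 163, 153, 114 and 134 FPKM in WT NCD fat and 212, 249, 222, 228 and 181 FPKM in WT HFD fat. All HFD values were above all NCD values, and it rose by 0.63 ± 0.14 (limma adjusted p = 0.00568). Rpl38, known for its part in translating Hox messengers, had 131, 130, 109 and 132 FPKM on NCD and 167, 205, 193, 187 and 170 FPKM on HFD. It rose by 0.55 ± 0.10 (limma adjusted p = 0.00264). Rpl37a also rose without overlap, by 0.57 ± 0.16 (limma adjusted p = 0.0175). The gene that fell was Rpl24, at 0.710, 0.936, 0.824 and 0.887 FPKM on NCD and 0.608, 0.619, 0.650, 0.564 and 0.589 FPKM on HFD, by 0.19 ± 0.07 (limma adjusted p = 0.0432). That call was lost when any single mouse other than WT NCD mouse 165 was left out, and with edgeR (adjusted p = 0.0555) and DESeq2 (adjusted p = 0.141). Without mice 182 and 183, Rps29 rose by 0.46 (limma adjusted p = 0.0161), Rpl38 by 0.49 (limma adjusted p = 0.00438) and Rpl37a by 0.49 (limma adjusted p = 0.0165), and Rpl24 differed by -0.18 (limma adjusted p = 0.0877).

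Rplp0 in WT visWAT had 281, 269, 226 and 502 FPKM on NCD and 333, 416, 370, 368 and 326 FPKM on HFD. Mouse 183 exceeded every HFD library and the others lay below all of them. The difference of 0.25 ± 0.22 did not pass (limma adjusted p = 0.398), and without mice 182 and 183 it was 0.39 (limma adjusted p = 0.0206). Rps6 followed the same pattern, with 158, 157, 133 and 248 FPKM on NCD and 187, 253, 220, 212 and 196 FPKM on HFD, and a difference of 0.33 ± 0.18 (limma adjusted p = 0.180), or 0.43 without these mice (limma adjusted p = 0.0185). Members that passed with all mice included Rps3 at 0.52 (limma adjusted p = 0.0412), Rps28, a small subunit protein, at 0.54 (limma adjusted p = 0.0157) and Rpl39, at the exit tunnel, at 0.54 (limma adjusted p = 0.00566). Without mice 182 and 183 they also passed, Rps3 at 0.60, Rps28 at 0.40 and Rpl39 at 0.45.

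**Figure D2:**
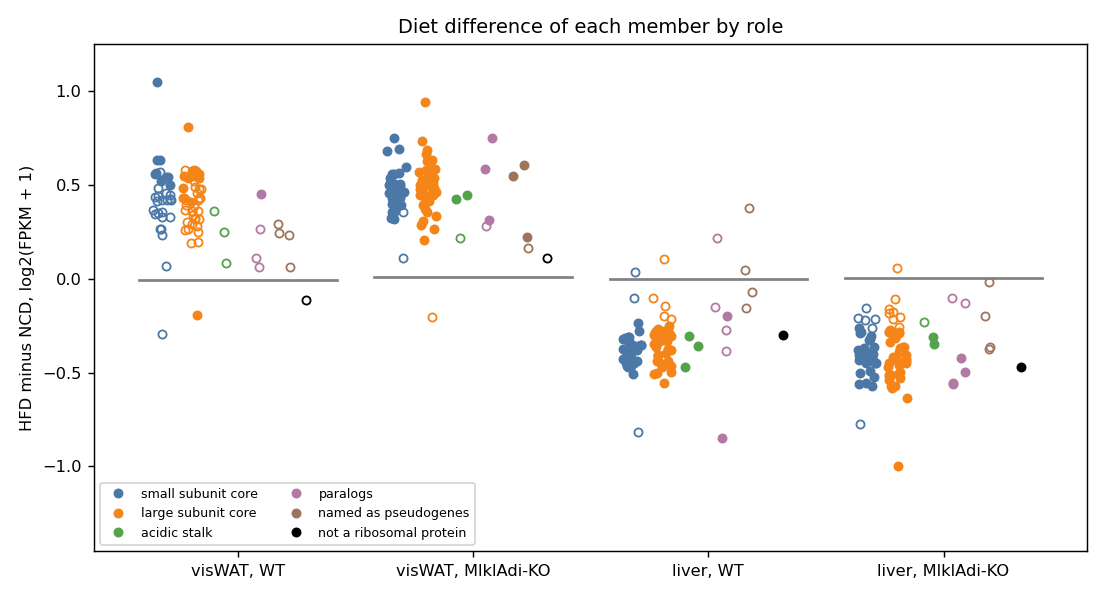
HFD minus NCD log2 difference of each tested member, by role, in visWAT and liver of WT and MlklAdi-KO mice; filled points have a limma adjusted p under 0.05 and the grey line is the median of all genes tested. In MlklAdi-KO visWAT 78 of 86 members are filled and above 0, and in liver the filled members (72 of 88 in WT, 63 of 88 in MlklAdi-KO) all lie below 0.

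In WT liver, 72 of 88 members fell on HFD and 0 rose, at a background of 12.1% of all genes falling and 13.2% rising. The groups of 68 of them did not overlap, a count that was likewise not made over all genes. The median difference of the members was -0.35 (0.784-fold) beside 0.00 over all genes. In MlklAdi-KO liver 63 of 88 fell and 0 rose, at a background of 10.3% falling and 11.9% rising, with a median of -0.38 (0.766-fold). Without MlklAdi-KO NCD mouse 197, or without mouse 199, 36 fell. These were the livers with the highest sums. The shares of all genes called in these smaller fits are not reported here. A loss of calls in the members alone therefore cannot be read from the 36. By role, 28 small subunit, 38 large subunit and all 3 stalk genes fell in WT liver, and 24, 33 and 2 in MlklAdi-KO liver. Of 6 tested paralogs, 2 fell in WT and 3 in MlklAdi-KO liver, and of 4 tested genes with pseudogene names 0 passed by limma in either.

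Rpl12, at the base of the stalk, had 46.6, 45.7, 55.2 and 46.5 FPKM in WT NCD liver and 34.4, 32.4, 31.6, 33.1 and 31.6 FPKM in WT HFD liver. It fell by 0.55 ± 0.06 (limma adjusted p = 0.000378), and each NCD liver was above each HFD liver. Rps23rg1, a retrocopy of Rps23 listed near 0 in visWAT, had 2.72, 1.31, 1.83 and 1.69 FPKM on NCD and 0.484, 0.692, 0.516, 0.362 and 0.906 FPKM on HFD. It fell by 0.85 ± 0.15 on the log2(FPKM + 1) scale (limma adjusted p = 0.00330), which understates changes at such low levels.

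In MlklAdi-KO liver, Rpl37 had 64.4, 61.6, 68.6 and 75.4 FPKM on NCD and 46.1, 39.3, 37.1, 48.9 and 44.2 FPKM on HFD. It fell by 0.64 ± 0.09 (limma adjusted p = 0.00157), without overlap. Rpl36 fell by 0.58 ± 0.13 (limma adjusted p = 0.0100), from a mean of 510 to 342 FPKM. Rplp0 fell by 0.31 ± 0.06 in WT liver (limma adjusted p = 0.00546), from 306, 307, 332 and 315 FPKM to 282, 243, 253, 250 and 245 FPKM. In MlklAdi-KO liver it had 313, 325, 323 and 334 FPKM on NCD and 300, 249, 240, 303 and 292 FPKM on HFD, a difference of -0.23 ± 0.08 (limma adjusted p = 0.0775). Rplp0 thus differed without overlap between diets in both livers, although only the WT difference passed.

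Rpl41, whose product is among the shortest of the ribosome, did not pass in either liver, with -0.10 ± 0.13 in WT (limma adjusted p = 0.601) and -0.18 ± 0.10 in MlklAdi-KO mice (limma adjusted p = 0.218), and rose in MlklAdi-KO visWAT by 0.48 ± 0.10 (limma adjusted p = 0.00386). Rps27a, which encodes a fusion of ubiquitin with a small subunit protein, passed in visWAT of both genotypes (1.05 in WT, 1.11 in WT without mice 182 and 183, and 0.75 in MlklAdi-KO mice) and in neither liver. Rpl13a, measured at a few FPKM as above, rose in visWAT by 0.48 in WT (0.58 without mice 182 and 183) and 0.63 in MlklAdi-KO mice, and fell by 0.28 in WT liver. Rps19bp1 fell in both livers, by 0.30 and 0.47, and did not pass in visWAT of either genotype.

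Of the 86 members tested in all 4 diet comparisons, 80 had differences above 0 in visWAT and below 0 in liver in both genotypes, among them 75 of the 77 core genes. Over all genes tested, 49.2% in WT and 51.1% in MlklAdi-KO mice lay above 0 in visWAT, and 49.8% and 50.6% in liver. The joint split was not counted over all genes. The core exceptions were Rpl24 and Rps10. The difference between tissues was itself tested, as the visWAT minus liver log2 value within each mouse, HFD against NCD mice, a test added after the values had been seen. It was higher on HFD for 71 of 88 members in WT mice and lower for 0, at a background of 20.2% higher and 16.2% lower. In MlklAdi-KO mice it was higher for 82 of 88 and lower for 0, at a background of 21.1% higher and 18.3% lower. Without mice 182 and 183, 72 were higher in WT mice. The median member difference was 0.77 (1.70-fold) in WT, 0.78 without these mice, and 0.87 (1.83-fold) in MlklAdi-KO mice. These fits use the same libraries as the within-tissue ones and are not independent of them. On the TPM scale 3731 genes were higher and 583 lower in the WT fit, against 2982 and 2383.

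Rpl32 showed the split clearly. In liver it had 190, 195, 211 and 188 FPKM on NCD and 144, 136, 134, 144 and 128 FPKM on HFD in WT mice, opposite to its values in fat above. Its tissue difference widened on HFD by 0.99 ± 0.25 in WT (limma adjusted p = 0.0124), by 1.14 without mice 182 and 183, and 1.23 ± 0.11 in MlklAdi-KO mice (limma adjusted p = 0.000117). For Rplp0 the corresponding values were 0.55 ± 0.24 (limma adjusted p = 0.0973) and 0.65 ± 0.11 (limma adjusted p = 0.00176). In MlklAdi-KO mice the 6 tested members that did not pass were Rpl24, Rps10, Rpl10-ps3, Rps27, Rps27rt and Rpl17.

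**Figure D3:**
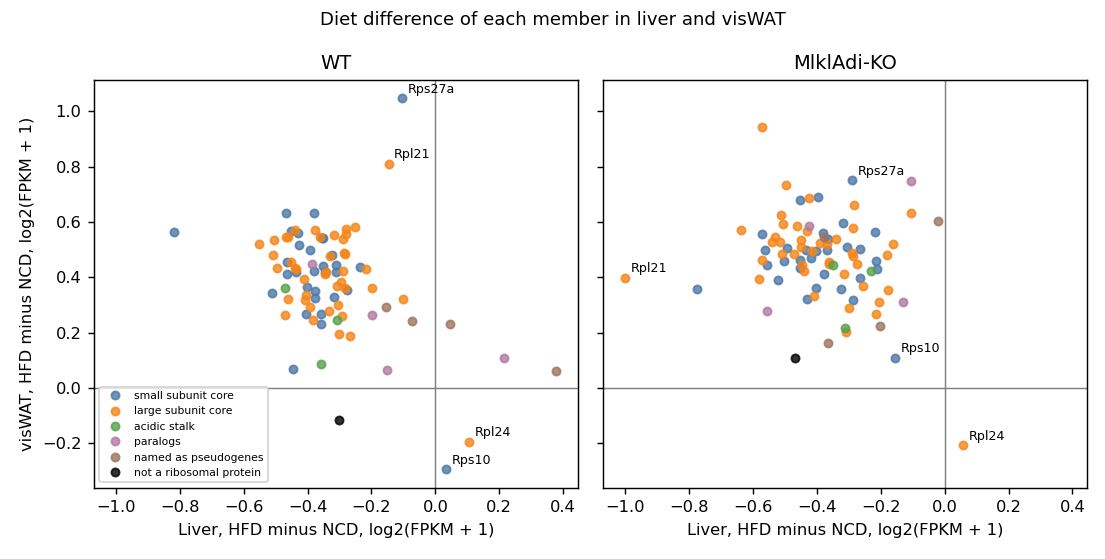
HFD minus NCD log2 difference of each member in visWAT (vertical axis) against liver (horizontal axis), for WT and MlklAdi-KO mice. Most members lie in the quadrant of higher levels in visWAT and lower levels in liver, as 80 of 86 do in both genotypes.

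No member passed the test between genotypes. In HFD-fed visWAT, 0 of 86 members were called by limma, edgeR or DESeq2, with 6 at an unadjusted p under 0.05 in limma, at a background of 0.0143% of all genes called higher and 0.00716% called lower. The median member difference, MlklAdi-KO minus WT, was 0.08. In NCD-fed visWAT it was -0.01 (0.05 without mice 182 and 183), with 0 of 84 called by any of the 3 tools, 0 at an unadjusted p under 0.05 and a background of 0.0% in either direction. In HFD-fed liver, 0 of 87 were called by the same tools (5 unadjusted, median 0.07, background 0.129% higher and 0.0681% lower). In NCD-fed liver 0 of 88 were called (5 unadjusted, median 0.09, background 0.0% higher and 0.00758% lower). These backgrounds are for adjusted p. Over all genes in limma, 3003 of 13963 had an unadjusted p under 0.05 in HFD-fed visWAT and 528 of 14063 in NCD-fed visWAT. In liver these were 1664 of 13215 on HFD and 574 of 13193 on NCD.

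The diet difference was also compared between genotypes. The interaction of genotype with diet was called for 0 of 86 members in visWAT (limma, edgeR and DESeq2, 1 unadjusted in limma, background 0.0% in either direction), where the median interaction was 0.08. In liver 0 of 88 were called (same tools, 1 unadjusted, background 0.0151% higher and 0.0% lower), with a median of -0.01. The larger number of members called in MlklAdi-KO visWAT than in WT visWAT is therefore not shown to be a difference between genotypes. Over all genes, the interaction had an unadjusted p under 0.05 in limma for 1867 of 14136 in visWAT and 811 of 13248 in liver. Rps19 was the 1 such member in visWAT, with an interaction of 0.39 (limma adjusted p = 0.353). It had 58.3 ± 12 and 60.4 ± 5.6 FPKM (mean and SD) in WT NCD and HFD fat and 51.8 ± 1.8 and 71.8 ± 7.2 FPKM in MlklAdi-KO fat.

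Fat and liver were compared within HFD-fed WT mice, where tissue and RNA extraction kit cannot be told apart. The size behind the FPKM was a mean of 1.38 times the reads on genes in this fat and 0.78 times in this liver. The members took a mean of 2.68% of reads on genes in this fat and 1.03% in this liver. Of 87 members, 75 were higher in visWAT and 4 lower, at a background of 41.6% higher and 43.0% lower, with a median of 0.56 (1.48-fold). With each mouse as a block, 69 were higher and 4 lower, and the share of all genes in the blocked fit is not reported here. Over all genes in the fit without the block, 6101 were higher and 6313 lower, and on the TPM scale 10530 and 2818. Rps12, a small subunit protein, had 71.8, 109, 98.5, 87.1 and 76.1 FPKM in visWAT and 31.6, 34.8, 29.1, 40.6 and 33.6 FPKM in liver. It was higher in visWAT by 1.35 ± 0.12 (limma adjusted p = 7.03e-07), without overlap. Rpl22l1 was higher by 1.08 ± 0.12 (limma adjusted p = 3.96e-06).

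Rps27l, a p53-induced paralog of Rps27, was the clearest member on the liver side, with 71.9, 92.9, 78.2, 82.4 and 74.0 FPKM in visWAT and 196, 169, 195, 184 and 187 FPKM in liver of these WT HFD mice. It was lower in visWAT by 1.21 on the log2 scale (a difference of -1.21 ± 0.07, limma adjusted p = 1.77e-08), and on the TPM scale, where the median of all genes was 0.80 higher in visWAT, the difference was -0.12 (limma adjusted p = 0.0942). Rps2, a small subunit protein, and Rpl7l1 were lower in visWAT by differences of -0.31 ± 0.07 and -0.35 ± 0.06, and on the TPM scale these turned to 0.79 and 0.69, about the shift of all genes. With the diets, Rps27l rose in MlklAdi-KO visWAT, from 57.6, 59.4, 54.3 and 70.7 FPKM to 107, 79.8, 80.3, 90.7 and 99.5 FPKM, by 0.59 ± 0.11 (limma adjusted p = 0.00345), and fell by 0.42 ± 0.10 in MlklAdi-KO liver (limma adjusted p = 0.0163).

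Each paralog was set against its parent gene within a library, as the difference of their log2(FPKM + 1) values. In 28 two-sided exact permutation tests, 0 passed an adjusted p of 0.05. The smallest p was that of Rpl22l1 over Rpl22 between diets in MlklAdi-KO visWAT (exact permutation p = 0.00794, the smallest that its 126 splits allow, adjusted p = 0.222). A single fully separated ratio among the 28 tests thus could not pass, so the 0 does not show that the ratios were unchanged. The tests of Rps27l over Rps27 also rest on a parent whose reads could not be separated from those of Rps27rt. For Rpl22l1 over Rpl22 in MlklAdi-KO visWAT, the log2 ratio was -1.88 to -1.70 on NCD and -1.37 to -1.20 on HFD. The difference was 0.54, and all 5 HFD mice lay above every NCD mouse. With a pseudocount of 0.1 this was 0.59, and again 0 of 28 passed. The added 1 weighs on paralogs of low level, as the difference for Rpl36al over Rpl36a in MlklAdi-KO liver was 0.02 with a pseudocount of 1 and -0.43 with 0.1.

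Rps27 and its retrocopy Rps27rt could not be separated as the other paralogs could. Rps27 lies at chr3:90119829-90120958 and Rps27rt at chr9:114811434-114811807, both on the minus strand of build GRCm39. Over their 252 coding bases they were identical, and 345 of the 374 bases of the Rps27rt mRNA aligned to the Rps27 mRNA with 0 differences. Rps27l differed at 60 of the 252 coding bases (76.2% identity). Coding bases 7 to 36 are printed for the 3 genes, with capitals at the 13 positions where Rps27l differs from the other two.
Rps27, chr3:90120579-90120608, minus strand: ctCgcAaAGgatctCCtTcaTccCtcTCCA
Rps27rt, chr9:114811740-114811769, minus strand: ctCgcAaAGgatctCCtTcaTccCtcTCCA
Rps27l, chr9:66854113-66854142, plus strand: ctGgcTaGAgatctGTtAcaCccTtcCTTG
The share of their joint reads given to Rps27rt ranged from 12.01 to 76.9% over the 36 libraries. It also differed between the tissues of 1 mouse, by -61.7 to 19.3 percentage points (visWAT minus liver, median -17.3, 18 mice). Within groups, the coefficient of variation was 19.7 to 72.1% for Rps27 and 5.45 to 68.0% for Rps27rt, and 3.07 to 28.7% for their summed RPM (reads-per-million). The highest of these for the sum was in WT NCD visWAT, and the other 7 groups were at or below 15.1%.

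Summed, Rps27 and Rps27rt had 173, 220, 172 and 227 RPM in MlklAdi-KO NCD visWAT and 270, 240, 242, 238 and 227 in MlklAdi-KO HFD visWAT. In WT liver the sum was 100.3, 101, 94.7 and 97.4 RPM on NCD and 80.6, 72.9, 84.8, 80.5 and 73.4 on HFD. Each HFD sum lay below each NCD sum in WT liver, and in MlklAdi-KO visWAT the groups met at 227 and lay apart otherwise. Fitted alone, Rps27 did not pass in any of the 4 diet comparisons, with limma adjusted p of 0.0724 to 0.311. The difference of Rps27 between HFD visWAT and liver of WT mice (1.45 ± 0.30, limma adjusted p = 0.000706) rests on the gene alone and is uncertain for the same reason.

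**Figure D4:**
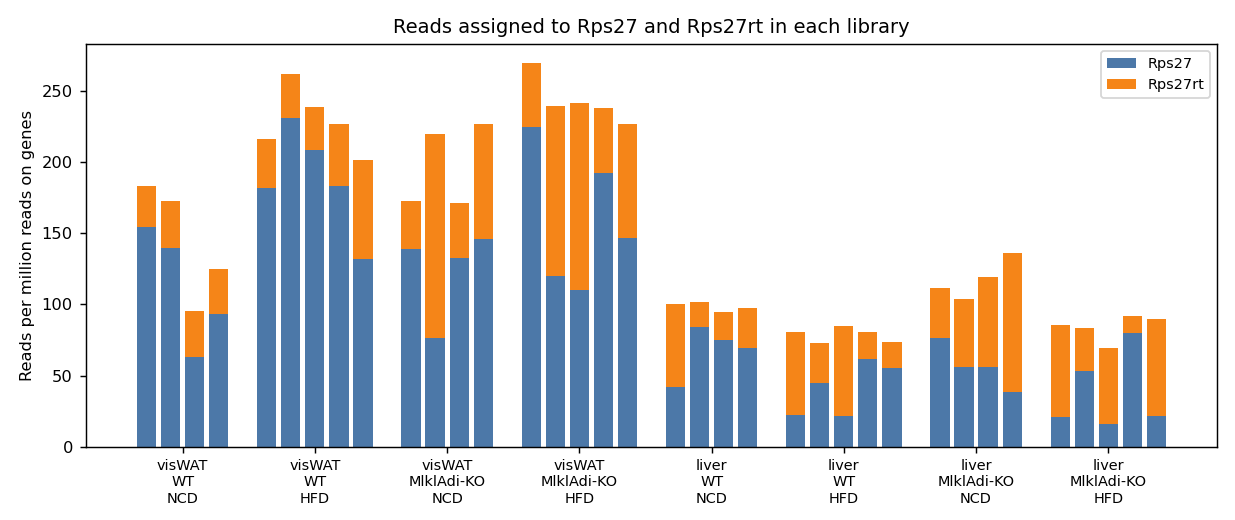
Reads-per-million (RPM) on Rps27 and on its retrocopy Rps27rt in each library, stacked. The share on Rps27rt ranges from 12.01 to 76.9%, while the height of the stack varies less within groups than either part in most groups.

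On the FPKM scale, core members shared part of their variation between mice within groups. The SD of log2(FPKM + 1) within groups, pooled over the 8 groups, had a median of 0.166 over the 77 core genes, and 0.0757 after each library's core median was subtracted. The SD became smaller for 73 of the 77. A scaling shared by all genes of a library would have the same effect, and its part was not tested. No other gene set was centred in this way, and mice 182 and 183 were included. In WT NCD visWAT the core median on the log2 scale was 6.16 in mouse 182 and 6.99 in mouse 183, against 6.47 and 6.45 in mice 165 and 180. The members with the largest pooled SD were Rps27rt at 0.76, Rpl17 at 0.65, Rps27 at 0.57, Rps27a at 0.49 and Rpl21 at 0.39. The small subunit median exceeded the large subunit median by 0.33 to 0.45 on the log2 scale in all 8 group means, with no diet or tissue in which the order turned.

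When each library was centred on its own core median, most calls between diets were gone, as that centring takes out what the members share. In WT visWAT, 0 members were then higher and 2 lower on HFD, in MlklAdi-KO visWAT 6 and 14, in WT liver 9 and 3, and in MlklAdi-KO liver 4 and 2. The shares of all genes called after this centring are not reported here.

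Gene length was set beside these results because members are short and short genes moved together in fat. The canonical mRNA of the core had a median of 1096 bases, with 46.8% under 1000 bases, against 2909 bases and 10.5% for all protein-coding genes. In HFD-fed visWAT, the MlklAdi-KO minus WT log2 difference of other protein-coding genes had a median of 0.23 for mRNAs under 500 bases, falling stepwise to -0.07 at 5000 bases and over. The members followed this less, with medians of 0.15 for the 8 under 500 bases and 0.08 for the 36 of 500 bases to under 1000. From 1000 to under 5000 bases the medians by class were 0.05, 0.05, 0.06 and 0.10, and the 2 members of 5000 bases and over had 0.01. Of other genes under 1000 bases and over 20 FPKM, 176 had a median genotype difference of 0.27, above the 0.08 of the members.

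Between diets the members were set beside other genes of similar length. In MlklAdi-KO visWAT, other genes had medians of 0.15, 0.17, 0.18, 0.14, 0.09, -0.01 and -0.11 from the shortest to the longest length class, and the members had medians of 0.44 to 0.54 in each class. Among 1507 other genes of 1000 bases or more and over 20 FPKM, 624 rose and 209 fell there (median 0.18), and of all genes 23.3% rose and 20.3% fell. Among 179 other genes under 1000 bases and over 20 FPKM, 86 rose and 2 fell (median 0.27). In WT visWAT, where 182 such genes had a median of -0.06 with 39 rising and 40 falling (0.05, 52 and 50 of 176 without mice 182 and 183), the members had medians of 0.34 to 0.54 by class. In WT liver, other genes had medians of -0.11 to 0.01 and members -0.41 to -0.31. Centring every library within mRNA length classes, which was added after the values had been seen, left a member median of 0.40 in MlklAdi-KO visWAT, and centring by deposited gene length left 0.37, against 0.48 without it. Length therefore moved with part of the difference in MlklAdi-KO fat, and its part was not tested further.

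**Figure D5:**
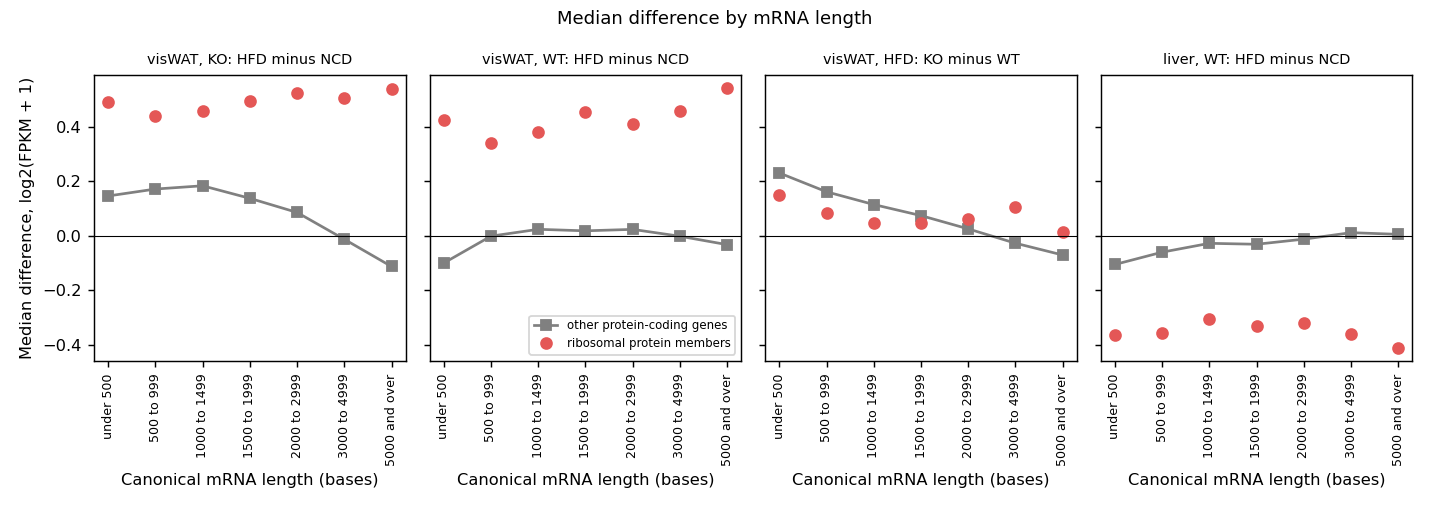
Median log2 difference by class of canonical mRNA length, for members and for all other protein-coding genes tested, in 4 comparisons. In MlklAdi-KO visWAT between diets the members stay at 0.44 to 0.54 in each class while other genes go from 0.15 to -0.11, and in the genotype comparison on HFD the short classes of other genes lie above the members.

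The mitochondrial ribosomal proteins, encoded by short nuclear genes, were counted in the same fits, and their difference from the cytosolic members was not tested. In WT visWAT, 1 of 77 (1.30%) rose on HFD and 21 (27.3%) fell, with a median of -0.19, where 21.9% of all genes rose and 15.8% fell. Without mice 182 and 183, 4 (5.19%) rose and 21 (27.3%) fell, with a median of -0.08, where 27.8% of all genes rose and 24.2% fell. In MlklAdi-KO visWAT 15 (19.5%) rose and 7 (9.09%) fell, with a median of 0.14, where 23.3% of all genes rose and 20.3% fell. The difference between genotypes on HFD had a median of 0.19 with 0 of 77 called by limma, at a background of 0.0143% higher and 0.00716% lower. In liver, 1 (1.30%) rose and 13 (16.9%) fell in WT mice, where 13.2% of all genes rose and 12.1% fell. In MlklAdi-KO liver 0 rose and 2 (2.60%) fell, where 11.9% of all genes rose and 10.3% fell.

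Other genes tied to the ribosome were counted from fixed lists. Of 16 other genes with TOP messengers, mostly translation factors, 13 (81.25%) rose and 0 fell in MlklAdi-KO visWAT (median 0.33), where 23.3% of all genes rose. In WT visWAT 5 (31.25%) rose and 0 fell (median 0.29), where 21.9% of all genes rose. Without mice 182 and 183 these were 11 (68.75%) and 0 (median 0.37), where 27.8% of all genes rose. In liver, 0 rose and 3 (18.75%) fell in each genotype (medians -0.16 in WT and -0.13 in MlklAdi-KO mice). Of all genes, 12.1% fell in WT and 10.3% in MlklAdi-KO liver, so for a list of 16 these counts were near the background. The following examples were chosen after their values were seen. Eef1b2 and Eef1g, subunits of the factor that recharges the elongation factor eEF1A, rose by 0.38 and 0.51 in MlklAdi-KO visWAT and fell by 0.32 and 0.24 in WT liver. Pabpc1, the poly(A)-binding protein, rose in visWAT by 0.53 in WT and 0.47 in MlklAdi-KO mice and did not pass in liver. Npm1, a nucleolar chaperone on the same list, rose in visWAT by 0.67 in WT and 0.66 in MlklAdi-KO mice. Without mice 182 and 183 the WT values were 0.58 for Pabpc1 and 0.78 for Npm1.

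A fixed list held 3 ribosomal proteins whose names fall outside the rule. In MlklAdi-KO visWAT 3 rose, where 23.3% of all genes rose. In WT visWAT 1 rose and 2 lay above 0, where 21.9% of all genes rose. Without mice 182 and 183, 2 rose there, where 27.8% of all genes rose. In liver 3 fell in WT and 2 in MlklAdi-KO mice, where 12.1% and 10.3% of all genes fell. Values are given here for Fau and Rack1 only. In MlklAdi-KO visWAT they rose by 0.56 and 0.61. They fell in WT liver by 0.46 and 0.35, and in MlklAdi-KO liver by 0.38 and 0.32. In WT visWAT Rack1 rose by 0.59 (limma adjusted p = 0.0460), and Fau differed by 0.44 (limma adjusted p = 0.0801), and without mice 182 and 183 they rose by 0.77 and 0.50.

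Of 37 ribosome biogenesis genes, 6 (16.2%) rose and 2 (5.41%) fell in WT visWAT, where 21.9% of all genes rose and 15.8% fell. Without mice 182 and 183, 13 (35.1%) rose and 4 (10.8%) fell, at a background of 27.8% and 24.2%. In MlklAdi-KO visWAT 12 (32.4%) rose and 3 (8.11%) fell, where 23.3% of all genes rose and 20.3% fell. In WT liver 1 (2.70%) rose and 2 (5.41%) fell, where 13.2% of all genes rose and 12.1% fell. In MlklAdi-KO liver 2 (5.41%) rose and 1 (2.70%) fell, where 11.9% rose and 10.3% fell. Examples chosen after their values were seen are Ncl, nucleolin, which rose in visWAT by 0.43 in WT and 0.37 in MlklAdi-KO mice, and Dkc1, the pseudouridine synthase dyskerin, which fell by 0.56 and 0.48. The WT values of both genes include mice 182 and 183.

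Of 17 genes listed under mTORC1 and TOP control, 2 (11.8%) rose and 5 (29.4%) fell in WT visWAT. Without mice 182 and 183, 3 (17.6%) rose and 5 (29.4%) fell. In MlklAdi-KO visWAT 4 (23.5%) rose and 3 (17.6%) fell, near the background of all genes. In WT liver 0 rose and 2 (11.8%) fell, where 12.1% of all genes fell, and 0 passed in MlklAdi-KO liver by limma. Those called in visWAT of both genotypes were Larp7, Eif4ebp2, Rps6kb1 and Larp4. Larp7 rose by 0.55 in WT and 0.40 in MlklAdi-KO mice, and whether it has a part in TOP control was not tested. Eif4ebp2, a repressor of cap-dependent translation, fell by 0.51 and 0.27. Rps6kb1, the kinase of RPS6, fell by 0.42 and 0.28, and Larp4 by 0.42 and 0.25. All these WT values include mice 182 and 183.

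Markers of other cell types moved with diet in the same fat libraries. All 12 macrophage markers rose on HFD in WT visWAT (median 2.35) and 10 of 12 in MlklAdi-KO visWAT (median 1.42). Their summed level was 350 to 459 FPKM in WT NCD, 427 to 705 in MlklAdi-KO NCD, 2518 to 3510 in WT HFD and 1139 to 3188 in MlklAdi-KO HFD visWAT, with 0 markers at 0 in any fat library. Of 12 mature adipocyte markers, 1 rose and 7 fell in WT (9 without mice 182 and 183) and 2 rose and 5 fell in MlklAdi-KO visWAT. Of 8 fibroblast markers, 7 rose in WT and 5 in MlklAdi-KO visWAT. The part of this change of cell types in the members' rise was not tested.

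In liver, 2 hepatocyte markers rose and 5 of 12 fell on HFD in each genotype, and their sum was 61344 to 71911 FPKM on NCD and 45757 to 60572 FPKM on HFD. Macrophage markers did not pass there in either genotype (0 of 11 tested in WT and 0 of 10 in MlklAdi-KO mice by limma), with sums of 75.9 to 277 FPKM over all livers. Of 6 Kupffer cell markers, 2 rose in WT liver, where 13.2% of all genes rose, and 0 passed in MlklAdi-KO liver by limma. The part of the hepatocyte and Kupffer cell markers' change in the members' fall was not tested.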

How the data were processed

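PolyA RNA of 36 libraries was sequenced by the authors in paired ends, trimmed with fastp, aligned with HISAT2 to mm39 and counted with featureCounts 1.5.0-p3. Strand setting, annotation release and handling of multi-mapped reads are not given in the sources used here. The deposited FPKM values of all genes were used, and the deposited read counts of the genes the authors list per comparison served to recover whole reads (100.0% of values whole within 0.05). The authors' fold changes, p-values and pathway files, and 72 repeated per-sample columns, were not used.

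Differences were fitted with limma 3.58.1 (R 4.3.3) on log2(FPKM + 1) over all genes with a mean of at least 0.5 FPKM in the mice compared, with Benjamini-Hochberg adjustment over all of them and a threshold of 0.05. Alternatives were edgeR 4.0.16 (quasi-likelihood) and DESeq2 1.42.0 on recovered reads, a pseudocount of 0.1, other filters, TPM, centring on the core or within 20 length classes, all libraries of a tissue, and leaving out each mouse. Both tissues came from the same mice, which pairs them by mouse number; groups within a tissue share no mouse. Separate mice are the replicates. mRNA and coding lengths came from GENCODE canonical transcripts in place of the RefSeq lengths planned. Members and gene lists were chosen with earlier results of these data known. Named genes were the 3 members with the largest rise and the 3 with the largest fall that passed without overlap, a fixed set of members with their paralogs, and the highest and lowest by level. Some genes that this rule or the lists name are not reported here. The statistics were tested on simulated data. Marker lists for lymphocytes, mesothelium, Kupffer cells and male accessory glands gave at most 4 passing genes each in any diet comparison within a tissue, but few were tested. In MlklAdi-KO visWAT 4 of 5 tested Kupffer cell genes and 3 of 5 lymphocyte genes rose, where 23.3% of all genes rose. In WT visWAT these were 3 of 5 and 0 of 5, where 21.9% of all genes rose, and the same 3 and 0 without mice 182 and 183.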

Additional observations from a re-analysis of the deposited data

Results flagged for a closer look

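Gene levels of the fixed members with 4 or 5 libraries a group were searched for a library far from the rest of its group by Dixon's ratio. Of 64 groups tested, 4 had one, and chance gives about 1 in 20. In WT NCD visWAT, Rpl32 had 301 FPKM in mouse 183, the library with seminal vesicle reads, and 136 to 161 FPKM in the others. In WT HFD liver, Rplp0 had 282 FPKM in mouse 154 and 243 to 253 FPKM in the others. Rps6 had 244 FPKM in MlklAdi-KO HFD visWAT of mouse 151 against 211 to 219 FPKM, and 209 FPKM in WT NCD liver of mouse 182 against 238 to 241 FPKM.

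The diet difference of 71 members in WT mice and 82 members in MlklAdi-KO mice differed between visWAT and liver by limma's test of the difference itself, all 71 and 82 in the direction of a higher value in visWAT.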

How the results depend on the processing

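The counts and medians of members in MlklAdi-KO visWAT, WT liver and between tissues kept their direction under each alternative except centring on the core, which removes the shared change by construction. In WT visWAT the number of members changed was 14 with no filter, 73 on the TPM scale, 2 with core centring, 15 with edgeR, 55 with all fat libraries fitted together, 62 without mice 182 and 183, and 13 to 69 when each mouse was left out; the member median was 0.89 on the TPM scale and 0.0163 with core centring (0.27 to 0.57 leaving out each mouse). With core centring the count and median were 20 and -0.0093 in MlklAdi-KO visWAT, 12 and 0.0322 in WT liver, 6 and -0.0128 in MlklAdi-KO liver, and 54 and -0.0605 between tissues, and the genotype medians in liver were -0.0386 on HFD and -0.0116 on NCD. Length centring gave a median of 0.37 (deposited length) or 0.40 (mRNA) in MlklAdi-KO visWAT. On the TPM scale the median was 0.37 for the genotype difference in NCD visWAT, 1.65 between tissues and 1.21 for the tissue difference by diet in WT mice, with all genes at 0.29, 0.80 and 0.34. Of the members named between tissues, Rps2 and Rpl7l1 turned to 0.79 and 0.69 on that scale.

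Leaving out each mouse gave 72 to 76 calls (median 0.45 to 0.50) in MlklAdi-KO visWAT, 67 to 72 (-0.37 to -0.33) in WT liver, 36 to 63 (-0.43 to -0.34) in MlklAdi-KO liver and 74 to 79 (0.50 to 0.61) between tissues. It gave 51 to 73 calls for the tissue difference by diet in WT mice and 79 to 83 in MlklAdi-KO mice. The shares of all genes called in these fits are not reported here. With the mouse as a replicate block, 73 members changed between tissues against 79 without it. The tissue difference by diet, paired by mouse, gave 71 calls in WT and 82 in MlklAdi-KO mice, and 72 and 83 without the pairing. No paired analysis was possible within a tissue because the groups share no mouse. Causes other than the construction of a setting were not tested. The counting error of members below 1 FPKM limits what can be said of them, as Rpl24 had 5 to 33 reads per library.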
